A study of Saccharomyces cerevisiae with 5 samples.

Results

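The comparison set 1 budding yeast culture of a strain built to overexpress replication initiation factors, grown without induction, against the wild type. Its members were 3 of the 5 samples of the series. Glucose F came from strain yIW160-SSDDCS in glucose medium, and wild type A and B came from strain yIW160, whose medium is not among the labels. Membership follows the strain and, for F, the medium in the labels, not a measured value. The name SSDDCS stands for Sld2, Sld3, Dbf4, Dpb11, Cdc45 and Sld7, 6 factors that galactose induces in this strain and that the labels call normally expressed in glucose. The other 2 samples, galactose E and G, are the induced strain. The growth note of all 5 samples is the same: asynchronous cultures at 30 degrees from an optical density of 0.1, 4 h in medium with 2% of either sugar, and doxycycline at 40 micrograms per ml for 2.5 h. Doxycycline was thus given to both strains. The labels do not say whether A and B are separate cultures, nor whether each strain is 1 clone, and no transcript or protein was measured that could check the level of the 6 factors.

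Replication in yeast starts at many origins, many of which fire in only some cells. Firing needs factors that are scarce, among them the 6 carried by this strain: Dbf4 is the activating subunit of the Cdc7 kinase, which prepares the loaded helicase, Cdc45 joins that helicase with the help of Sld3 and its partner Sld7, and Sld2 and Dpb11 help to complete it. Okazaki fragments are the short pieces of the lagging strand. With the ligase that joins them repressed, the strand they map to shows which way forks passed, so an origin appears as a switch from leftward to rightward forks and a termination zone as the opposite switch.

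The values are the authors' fits to those fragments, as line segments of rightward and leftward forks with a position, a time in minutes and a probability. The fits hold 4545 segments in glucose F, against 6353 and 6039 in wild type A and B. Fork speed is a constant of the fits, with a median of 2900 bases per min in each sample, and time 0 is the earliest averaged position of each sample. Read depth is unknown, since the files analysed hold no counts. Glucose F was sequenced as single-end Ion Torrent reads and wild type A and B as paired-end Illumina reads, so strain and platform cannot be told apart in any difference below. Since the medium of A and B is not among the labels, a difference in medium cannot be told apart from these either. With 1 sample of the factor strain, each difference was judged by the gap between A and B: it is called beyond the gap where F lay outside their range and farther from the nearer one than A lay from B. An exact permutation test of 1 sample against 2 cannot go below 1 in 3 and was not used. Likewise, if the 3 samples were interchangeable, F would lie beyond the gap for about 1 in 3 of the items. P-values are from limma over all 5 samples, which assumes that the lone glucose sample varies like the other groups. They measure only the spread between these samples, which may be technical. Coordinates are those of the deposited files, whose genome build is not given in the sources used here, so no gene or origin name was attached to them.

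The uninduced factor strain made about as many initiations as the wild type with fewer sites under a probability of 0.5. Initiation sites were read from the fits as bases that a leftward and a rightward segment both leave at 1 time, and the probability of a site is the share of genome copies that initiate there, with a minimum of 0.1. Glucose F had 277 sites, against 282 in wild type A and 309 in wild type B. Their probabilities summed to 182 initiations per genome copy in glucose F, against 166 and 184 in wild type A and B, so glucose lay between the 2 wild types. Sites had a mean probability of 0.657 in glucose F, against 0.590 and 0.596 in wild type A and B, and the median was 0.732 in glucose F, against 0.641 and 0.642 in wild type A and B. Both were beyond the gap. Sites under 0.5 numbered 74 in glucose F, against 95 and 110 in wild type A and B, also beyond the gap. Those under 0.3 numbered 41 in glucose F, against 42 and 58 in wild type A and B, which is within the gap. Sites of at least 0.9 numbered 51 in glucose F, against 15 and 37 in wild type A and B. Here F was above both, but by less than A and B differed from each other.

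Most sites were common to both strains. Joining sites of different samples within 2500 bp gave 407 sites over all 5 samples, of which 352 were listed in glucose or wild type and 237 in all 3. At those 237 the mean probability was 0.709 in glucose F, against 0.634 and 0.685 in wild type A and B. Glucose was the highest of the 3 at 120 of them, the lowest at 55 and in between at 62. Probabilities of F differed from those of A by a mean of 0.132 and from those of B by 0.124, whereas A and B differed by 0.0855. Across these 237 sites, which are not independent replicates, Pearson's r was 0.786 between F and A, 0.738 between F and B and 0.9004 between A and B. The fitted positions were also farther apart between strains: the median offset was 192 bp between F and A and 340 bp between F and B, against 79 bp between A and B.

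**Figure D1:**
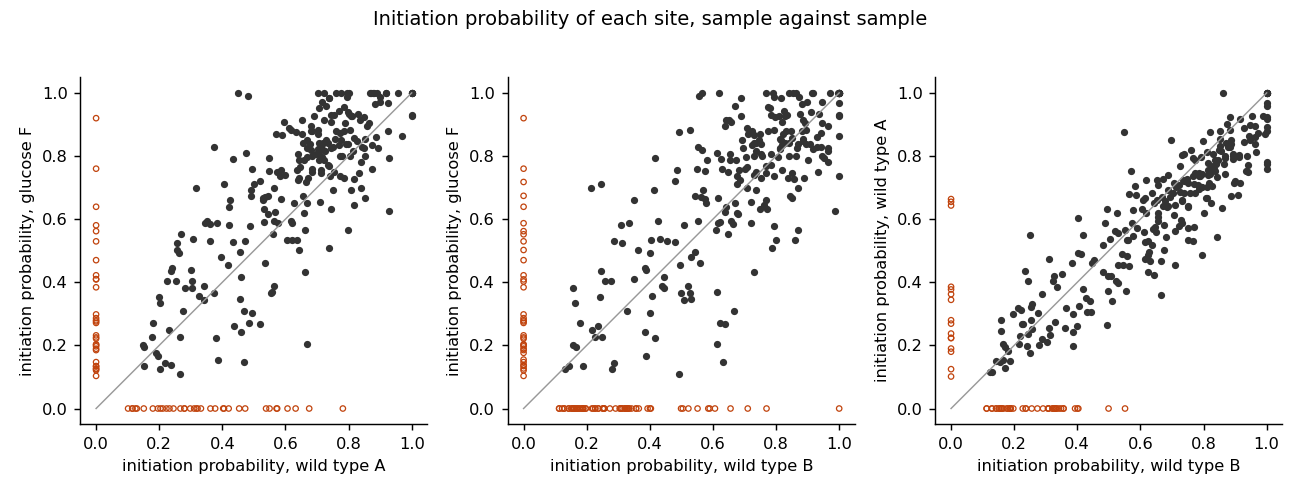
Initiation probability of each site, glucose F against wild type A (left), glucose F against wild type B (middle) and wild type A against wild type B (right). Filled points are sites listed in both samples of a panel, open points are sites listed in 1 of them, and the line marks equal probability. The filled points scatter more widely in the panels with glucose (r = 0.786 and 0.738 over the 237 sites of all 3 samples) than between the wild types (r = 0.9004).

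Site by site, 108 of the 407 sites (26.5%) were higher in glucose beyond the gap and 62 (15.2%) were lower, 170 in all (41.8%). Of the 352 sites listed in these 3 samples, that is 30.7% and 17.6%. The higher ones were mostly shared sites, with 80 listed in all 3 samples and 27 in glucose alone, and their median gain was 0.193. Of the 62 lower sites, 34 were listed in all 3 samples and 28 were not listed in glucose, and their median difference was -0.206. The 27 sites of glucose alone were weak, with a median probability of 0.271. They had to be beyond the gap, since A and B were both at 0 there, yet they count in the 108 and in the median gain. Of these 27, 14 were also listed in at least 1 galactose sample. The 29 sites that both wild types had and glucose lacked averaged 0.373 in A and 0.369 in B, and 17 of these were listed in at least 1 galactose sample.

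Limma called 12 of the 407 sites (2.95%) at an adjusted p under 0.05, 8 higher in glucose (1.97%) and 4 lower (0.983%). At an unadjusted p under 0.05 there were 96 sites (23.6%). At all 8 higher sites the other 4 samples were at 0, galactose E and G of the same strain included. These sites passed the minimum of 0.1 through glucose F alone and had to differ, and their standard error of 0.0215 was set by the spread of other sites, so their p-values are not given and support nothing here. Of the 4 lower sites, the one on chromosome VII was listed in the 2 wild types alone and is treated likewise. At the lower sites on chromosomes XV and XVI both galactose samples had a probability of 1 and showed no spread. Their p-values are not given either. The calls depended on how sites were joined, since 31 were made when only sites within 1000 bp were joined and 0 when sites within 5000 bp were. They also changed when 1 wild-type or galactose sample was left out. With either galactose sample left out, no lower site was called.

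The largest gains and losses often lay side by side. In 9 places a glucose site that neither wild type had lay within 6 kb of a site that both wild types had and glucose lacked, a distance chosen after the values were seen. These 9 places held 6 of the 10 largest gains and 5 of the 10 largest losses. In 7 of them both galactose samples, of the same strain as F, used the wild-type position and not that of glucose F, and in 1 of them both used the position of glucose F alone. Within any 1 sample the closest sites were 11.028 kb apart, so no fit lists 2 sites at so short a distance. On chromosome I, glucose F had a site of probability 0.920 at base 24848, where both wild types and both galactose samples had 0. Its neighbour 4.774 kb away at base 29622 was 0 in glucose F, against 0.572 and 0.590 in wild type A and B (adjusted p = 0.0473 by limma). Summed over the pair, glucose still had 0.920 initiations, against 0.572 and 0.590 in wild type A and B, so here the summed use differed beyond the gap.

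Chromosome XVI held a like pair. Glucose F had 0.760 at base 122161 and both wild types had 0. At base 117154 glucose F had 0 and wild type A and B had 0.632 and 0.606. Galactose E and G both had a probability of 1 at base 117154 and 0 at the glucose position. The pair summed to 0.760 in glucose F, against 0.632 and 0.606 in wild type A and B. On chromosome VI, 0.639 at base 63897 in glucose F stood beside 0.405 and 0.522 at base 68442 in wild type A and B. On chromosome VIII the glucose site at base 171539 had 0.530, and the wild-type site at base 168762 had 0.267 and 0.227 in A and B. On chromosome XI the glucose site at base 646080 had 0.422, and the wild-type site at base 642910 had 0.332 and 0.256 in A and B. In all of these the summed use was higher in glucose beyond the gap. Galactose E and G used the wild-type position in these pairs too, with 0.830 and 0.925 on chromosome VI, 1 and 1 on chromosome VIII and 0.769 and 0.741 on chromosome XI.

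In the other 4 pairs the sum was not higher in glucose beyond the gap. On chromosome IV the pair at bases 236196 and 233168 summed to 0.562 in glucose F, against 0.453 and 0.710 in wild type A and B. On chromosome I the pair at bases 119918 and 124486 summed to 0.276 in glucose F, against 0.311 and 0.220 in wild type A and B. On chromosome V the pair at bases 212941 and 217668 summed to 0.409 in glucose F, against 0.420 and 0.327 in wild type A and B. In these, the fitted position differed and the summed use did not differ beyond the gap. At the glucose position of every pair A and B were both at 0, so any glucose site there had to be beyond the gap. Galactose E and G had 1 and 0.970 at base 124486, the wild-type position on chromosome I, but 0.889 and 1 at base 212941, the glucose position on chromosome V. Only the pair on chromosome XVI at bases 883894 and 881081 was lower in sum beyond the gap, with 0.271 in glucose F, against 0.574 and 0.770 in wild type A and B. Galactose E and G had 0.827 and 1 at base 881081.

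Some wild-type sites had no such partner. On chromosome XIV at base 563991 glucose F had 0, against 0.782 and 1 in wild type A and B, the largest loss by this measure. The nearest glucose site, 19.9 kb away at base 544136, had 0.501 in glucose F, against 0.256 and 0.362 in wild type A and B. Galactose E and G had no site at base 563991 either. Forks passed the place in both directions in glucose: over the 20 kb to its right the rightward share was 0.452 in glucose F, against 0.823 and 1 in wild type A and B. Over the 20 kb to its left it was 0.563 in glucose F, against 0.191 and 0.235 in wild type A and B. The jump that marks an origin in both wild types was thus not there in glucose F, and the sides differed by less.

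On chromosome VII at base 571666 glucose F had 0, against 0.607 and 0.656 in wild type A and B. The nearest glucose site was 62.8 kb away. All forks were rightward on both sides in glucose, with a share of 1 over the 20 kb to the left, against 0.383 and 0.347 in wild type A and B. Galactose E and G had no site at this base, but had 0.799 and 0.805 at base 568376.

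On chromosome XV at base 308985 glucose F had 0, against 0.675 and 0.585 in wild type A and B. Both galactose samples, of the same strain as F, had a probability of 1 there. Its flanks fired in glucose, with 0.986 in F at base 277627, against 0.9001 and 0.874 in wild type A and B, and 0.926 in F at base 337344, against 0.691 and 0.688 in wild type A and B. Over the 20 kb to the left of the lost site, the rightward share was 0.988 in glucose F, against 0.648 and 0.680 in wild type A and B. Rightward forks thus prevailed up to the lost site in glucose.

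**Figure D2:**
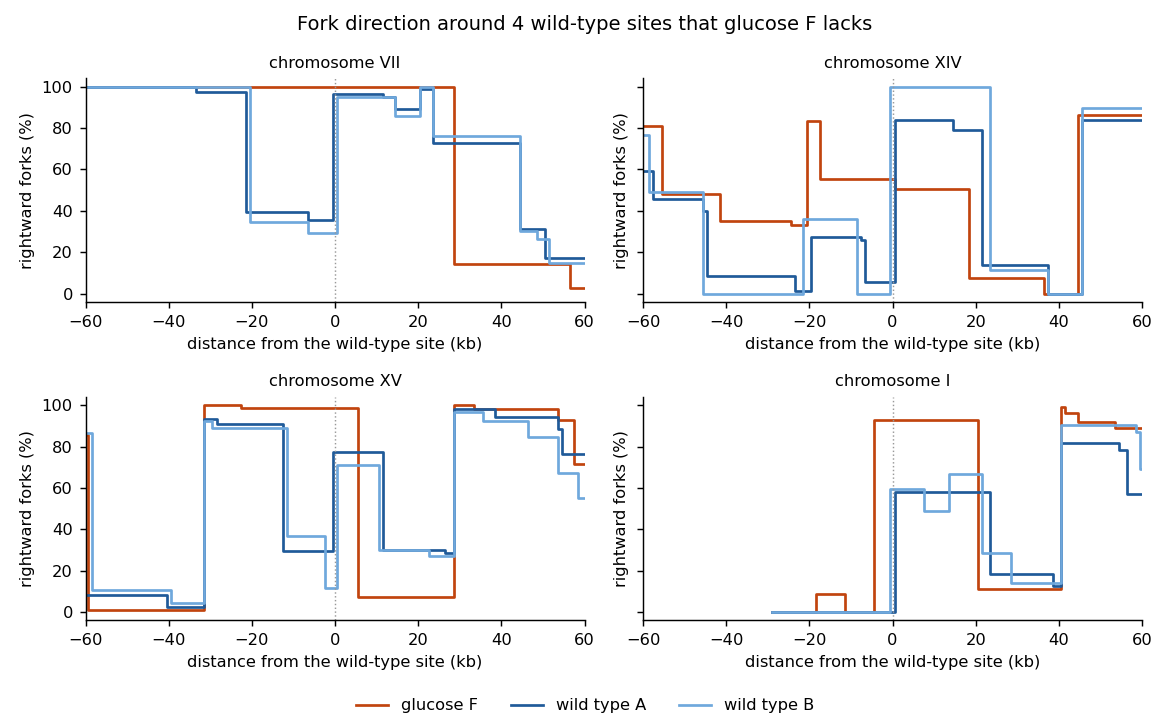
Share of rightward forks, in percent, within 60 kb of 4 wild-type sites that were not listed in glucose F, the largest such loss on each of chromosomes VII, XIV, XV and I. Lines are glucose F, wild type A and wild type B. The wild types step up at distance 0 in all 4 panels, glucose F has no upward step there, and on chromosome I its step lies 4.774 kb to the left.

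Near chromosome ends, 2 more losses ranked among the 10 largest. On chromosome XIV at base 764682, 19.7 kb from the end, glucose F had 0, against 0.539 and 0.505 in wild type A and B (adjusted p = 0.422 by limma). On chromosome VII at base 1063443, 27.5 kb from the end, glucose F had 0.205, against 0.667 and 0.614 in wild type A and B (adjusted p = 0.0514 by limma). There galactose E and G had 0.802 and 0.829.

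The largest gain at a site that all 3 samples used was on chromosome XI at base 301796, with 1 in glucose F, against 0.451 and 0.565 in wild type A and B (adjusted p = 0.0822 by limma). Next came chromosome XIII at base 610798, with 0.989 in glucose F, against 0.482 and 0.557 in wild type A and B (adjusted p = 0.0719 by limma). On chromosome IX at base 73806 glucose F had 0.698, against 0.318 and 0.214 in wild type A and B (adjusted p = 0.231 by limma). Both galactose samples were also above both wild types at these places, with 0.972 and 0.984 on chromosome XI, 1 and 0.954 on chromosome XIII and 0.879 and 0.632 on chromosome IX. None of these passed the limma threshold. A further named gain, on chromosome IV at base 1383212, was 0.470 in glucose F and 0 in both wild types (adjusted p = 0.610 by limma). Wild type B, but not A, had a site 3.651 kb away. A weak site on chromosome XII at base 202950 had 0.280 in glucose F and 0 in wild type A and B.

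Strength in 1 wild type told how often a site was not listed at its position in glucose. Sites were put into 4 classes of about equal size by their probability in wild type A and then read in the samples that had no part in that choice. In the weakest class of 71 sites, 36.6% were not listed in glucose F, against 18.3% in wild type B, and the mean was 0.242 in F, against 0.252 in B. In the next class 11.4% were not listed in glucose F, against 0% in wild type B. The wild-type sites of the 9 pairs described above count as not listed in F, and all fall in these 2 classes. Glucose had a site close by in those, so not all sites that were not listed lacked initiation nearby. In the upper 2 classes 1.43% and 1.41% were not listed in glucose F, against 4.29% and 0% in wild type B. In the third class the mean probability was 0.784 in glucose F, against 0.718 in wild type B. Chosen on wild type B instead, the weakest class had 65.4% of sites not listed in glucose F, against 46.2% in wild type A.

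Sites within 30 kb of a chromosome end were used less in glucose. They summed to 6.60 initiations in glucose F, against 9.66 and 8.97 in wild type A and B, which is 0.709 times the wild-type mean and beyond the gap. In this zone 10 sites were listed in both wild types and not in glucose, and 4 in glucose alone. Both counts include the pairs described above at the left end of chromosome I and the right end of chromosome XI. Summed use at those ends was higher in glucose, with 0.920 in F, against 0.572 and 0.590 in A and B on chromosome I. On chromosome XI it was 0.422 in F, against 0.332 and 0.256 in A and B. From 30 to 60 kb the sums were 11.3 in glucose F, against 11.9 and 13.1 in wild type A and B. From 60 to 100 kb they were 25.4 in glucose F, against 23.1 and 23.8 in wild type A and B, higher beyond the gap. Farther in they were 139 in glucose F, against 122 and 138 in wild type A and B, which is within the gap. The zones were chosen with earlier results known, and the difference was not tested.

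Weak and strong sites near ends were also read apart, over few sites and with no test. Among sites under 0.5 in wild type A, the 18 within 30 kb of an end averaged 0.153 in glucose F, against 0.254 in wild type B. The 77 elsewhere averaged 0.343 in glucose F, against 0.338 in wild type B. Among sites of 0.5 and over in A, the 6 within 30 kb averaged 0.337 in glucose F, against 0.562 in wild type B, and the 181 elsewhere averaged 0.777 in F, against 0.768 in B. Ends differed from one another: of 32 ends, 12 were lower in glucose beyond the gap, 9 were higher and 5 had no site in any of the 3 samples. Over all 352 sites listed in these samples, 17.6% were lower and 30.7% higher beyond the gap. At 8 ends both wild types had sites and glucose had none, and at 2 ends the reverse held. The right end of chromosome V had a summed use of 0.146 in glucose F, against 0.940 and 0.940 in wild type A and B. The right end of chromosome XIII had 1.11 in glucose F, against 0.739 and 0.818 in wild type A and B.

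By whole chromosome, the summed use was beyond the gap on 4 of the 16 chromosomes (25%), higher in glucose on each. Chromosome VI had 4.52 initiations in glucose F, against 3.81 and 3.78 in wild type A and B. Chromosome IX had 7.28 in glucose F, against 6.38 and 6.10 in wild type A and B. Chromosome XV had 17.4 in glucose F, against 15.5 and 16.1 in wild type A and B. Chromosome V, with 9.22 in glucose F, against 9.04 and 8.98 in wild type A and B, was higher by only 1.02 times. Chromosome XIV had the lowest ratio, 0.883, with 12.1 in glucose F, against 13.0 and 14.4 in wild type A and B, which did not exceed the gap.

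Forks moved more uniformly in glucose. The rightward share, the fraction of forks that pass a place from left to right, was averaged over 2386 windows of 5 kb. It was over 90% or under 10%, here called one-way, in 40.7% of windows in glucose F, against 23.1% and 30.6% in wild type A and B. The difference from the wild-type mean was 13.9 percentage points and beyond the gap, with glucose the highest of the 3 on 12 of 16 chromosomes. With the limits at 80% and 20% the values were 64.2% in glucose F, against 46.6% and 53.2% in wild type A and B. In the induced strain they were higher at the limits of 90% and 10%, with 46.3% in galactose E and 51.6% in galactose G. All 3 samples of the factor strain thus lay above both wild types. They were also the samples with fewer segments and the other platform, and the part of either in this result was not tested.

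**Figure D3:**
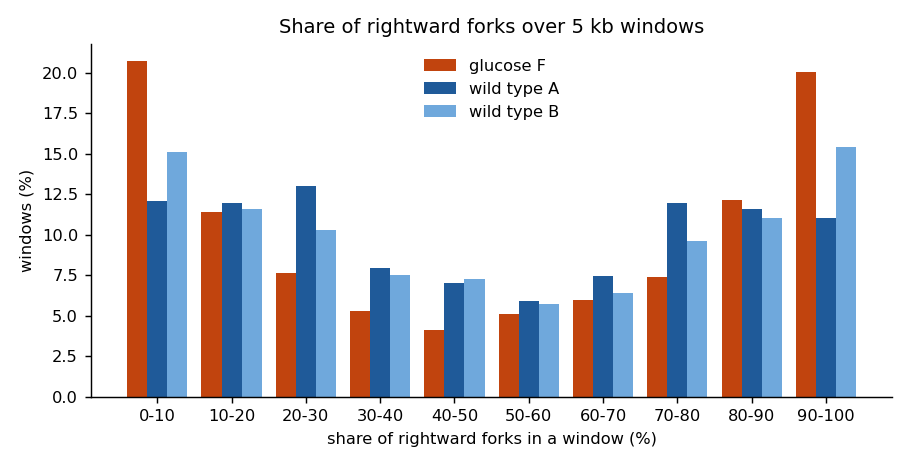
Percent of 5 kb windows in each range of the share of rightward forks, for glucose F, wild type A and wild type B. Both outer ranges hold more windows in glucose F, and the 2 together come to 40.7% in glucose F, against 23.1% and 30.6% in wild type A and B.

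Most windows that were one-way in both wild types were also one-way in glucose. Of 426 windows that were one-way in both wild types, 360 (84.5%) were one-way in glucose F. Part of the higher total came from elsewhere: of 1531 windows that were one-way in neither wild type, 377 (24.6%) were one-way in glucose F. Windows that were one-way in only 1 wild type were not read apart. Over the 2386 windows the rightward shares had a Pearson's r of 0.884 between F and A and 0.859 between F and B, against 0.929 between A and B. Windows share forks with their neighbours and are not independent replicates. The main direction, taken as the side of 50%, was opposite in glucose to both wild types in 188 windows (7.88%). Pair by pair, the main direction differed in 246 windows (10.3%) between F and A and in 303 (12.7%) between F and B, against 172 (7.21%) between A and B. Windows opposite to both wild types mostly stood alone, as 103 of the 138 runs of switched windows were 1 window long. Only 2 windows passed from under 20% to over 80% or the reverse.

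Beyond the gap, the rightward share was higher in glucose in 532 windows (22.3%) and lower in 505 (21.2%). Limma called none of the 2386 windows (0%), with 432 (18.1%) at an unadjusted p under 0.05. Runs of at least 4 windows beyond the gap in 1 direction formed 46 regions of higher and 40 of lower share. The top-ranked by difference times length was chromosome IV from 520001 to 550000, where the share was 0.886 in glucose F, against 0.293 and 0.228 in wild type A and B. This is also the longest run of opposite main direction. No site of glucose or wild type within 10 kb of it differed beyond the gap.

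Several of the other named regions lay beside a site that was lost or gained. On chromosome VII from 550001 to 600000 the share was 1 in glucose F, against 0.684 and 0.663 in wild type A and B, and it holds the lost site at 571666. The next stretch, from 600001 to 640000, went the other way, with 0.121 in glucose F, against 0.425 and 0.422 in wild type A and B. On chromosome XIV the lost site at 563991 stood between a region of higher share from 520001 to 560000 (0.464 in glucose F, against 0.139 and 0.118 in wild type A and B) and one of lower share from 565001 to 585000 (0.452 in glucose F, against 0.823 and 1 in wild type A and B). On chromosome I from 10001 to 50000, around the moved site, the share was 0.585 in glucose F, against 0.297 and 0.299 in wild type A and B. On chromosome XI from 270001 to 300000, next to the gain at 301796, it was 0.0491 in glucose F, against 0.467 and 0.394 in wild type A and B.

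The remaining 3 named regions lay beside smaller differences in site use. Chromosome IV from 630001 to 700000 had a share of 0.545 in glucose F, against 0.295 and 0.294 in wild type A and B. A site just to its left, at base 628592, had 0.552 in glucose F, against 0.269 and 0 in wild type A and B. Chromosome XV from 980001 to 1055000 had 0.252 in glucose F, against 0.408 and 0.416 in wild type A and B. Its right neighbour, the site at base 1053775, had 0.954 in glucose F, against 0.786 and 0.774 in wild type A and B. Chromosome XIII from 330001 to 370000 had 0.319 in glucose F, against 0.546 and 0.521 in wild type A and B, beside a site at base 371181 with 0.757 in glucose F, against 0.638 and 0.684 in wild type A and B.

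Forks met at other places more often between strains than between the wild types. Forks were taken to meet where rightward forks drop below 50% between neighbouring sites of at least 0.3, in 131 intervals found in all 3 samples with a median length of 46.8 kb. It differed by a median of 2.66 kb between F and A and 2.61 kb between F and B, against 1.41 kb between A and B. Differences over 5 kb numbered 34 between F and A and 35 between F and B, against 19 between A and B. In 69 of the 131 intervals (52.7%) the glucose position was beyond the gap. The largest shift, on chromosome IV between the sites at 505694 and 555144, put termination at 549.4 kb in glucose F, against 521.6 and 524.3 kb in wild type A and B. On chromosome XVI between 683988 and 777152 it was at 730.8 kb in glucose F, against 712.3 and 712.2 kb in wild type A and B.

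Termination was also more concentrated in glucose. The strongest termination event of an interval took a mean of 79.9% of its events in glucose F, against 71.9% and 74.96% in wild type A and B. In the 98 intervals where the share passed from over 75% to under 25% in all 3 samples, it did so in 1 step in 50% of them in glucose F, against 31.6% and 44.9% in wild type A and B. The median width of that passage was 1 kb in glucose F, against 13.1 and 8.5 kb in wild type A and B. The glucose median is not a typical width. With 49 of the 98 intervals passed in 1 step, it fell midway between these and the next width, 2 kb. In wild type A and B, 31 and 44 intervals were passed in 1 step. The passage was narrower in glucose than in both wild types in 36 intervals and wider than in both in 11. Mean share and median width were beyond the gap. The share of 1-step passages, which sets the glucose median, was within it. The glucose fit also holds fewer segments, whose part in these values was not tested.

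Outside chromosome IV, fitted replication time differed between strains about as much as between the wild types. Time was averaged over 2081 windows there. The mean was 11.7 min in glucose F, against 12.4 and 12.8 min in wild type A and B, a difference of -0.84 min that was beyond the gap. Its sign depended on time 0: with each sample centred on its own median, the difference was 0.34 min. The SD of time over windows was 6.31 min in glucose F, against 6.43 and 6.58 min in wild type A and B, which is within the gap. The span between the outer 5% on each side was 20.6 min in glucose F, against 21.1 and 20.96 min in wild type A and B, narrower beyond the gap. Across the 2081 windows Pearson's r was 0.813 between F and A and 0.605 between F and B, against 0.672 between A and B. Glucose thus followed wild type A more closely than wild type B did. F and A differed by a mean of 3.00 min and F and B by 4.48 min, against 3.76 min for A and B.

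The wild types themselves parted most on chromosome XVI, with means of 10.5 min in A and 16.2 min in B and r of 0.0493 between them. Glucose F had a mean of 9.36 min there and an r of 0.915 with A. On 10 of the 15 chromosomes other than IV, the r of F with A exceeded that of B with A. Chromosome means were beyond the gap on 4 of these. They were later in glucose on chromosome I (9.33 min in F, against 5.94 and 4.67 min in wild type A and B) and chromosome VI (12.4 min in F, against 10.97 and 9.63 min in wild type A and B). They were earlier on chromosome V (9.53 min in F, against 12.2 and 13.4 min in wild type A and B) and chromosome VII (12.3 min in F, against 14.6 and 14.5 min in wild type A and B).

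**Figure D4:**
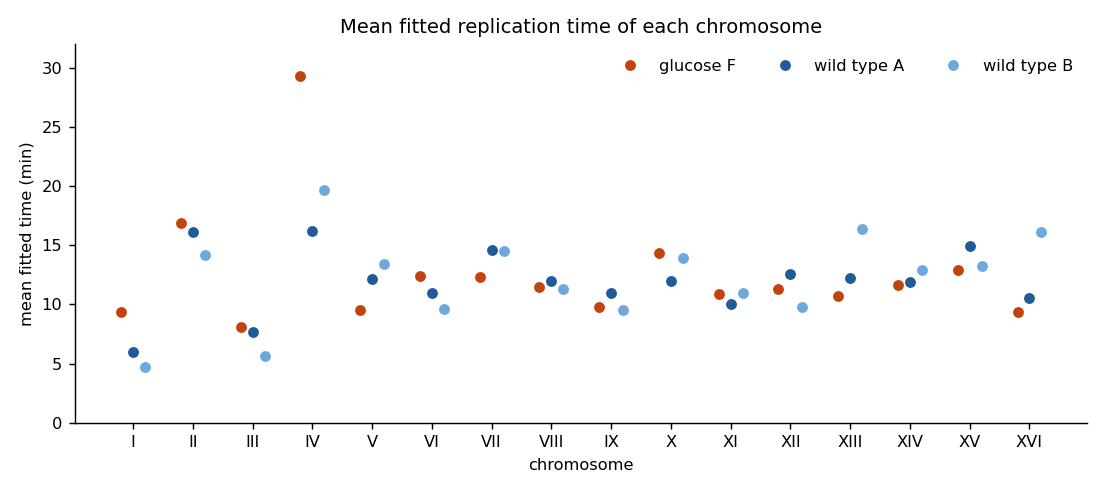
Mean fitted replication time of each chromosome in minutes, for glucose F, wild type A and wild type B, 1 point per sample. Chromosome IV stands apart, at 29.3 min in glucose F, against 16.2 and 19.7 min in wild type A and B, and the 2 wild types differ most on chromosome XVI.

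By window, time outside chromosome IV was later in glucose beyond the gap in 331 windows (15.9%) and earlier in 435 (20.9%). Runs of at least 4 such windows formed 25 later and 23 earlier regions. Chromosome VII held both kinds: 550001 to 740000, which contains the lost site at 571666, was at 21.5 min in glucose F, against 15.9 and 16.3 min in wild type A and B. From 740001 to 1065000 the mean was 10.3 min in glucose F, against 15.96 and 15.5 min in wild type A and B, and from 1 to 245000 it was 11.002 min in glucose F, against 16.7 and 18.0 min in wild type A and B. Chromosome XIV was similar, later from 525001 to 675000 around its lost site (10.8 min in glucose F, against 4.87 and 5.51 min in wild type A and B) and earlier from 1 to 215000 (9.83 min in glucose F, against 15.4 and 17.2 min in wild type A and B).

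Chromosome XV was later in glucose from 855001 to 1030000, with 13.3 min in F, against 7.12 and 7.34 min in wild type A and B. It was earlier from 120001 to 305000, with 6.52 min in glucose F, against 13.9 and 12.8 min in wild type A and B, a stretch that ends beside the lost site at 308985. It was earlier also from 1 to 85000, with 17.4 min in glucose F, against 27.8 and 25.2 min in wild type A and B. A lost site thus lay in or beside both later and earlier regions. Chromosome I from 30001 to 165000 was at 10.1 min in glucose F, against 4.22 and 3.42 min in wild type A and B. Chromosome II from 300001 to 400000 was at 18.9 min in glucose F, against 14.5 and 15.4 min in wild type A and B. All 10 named regions kept their direction with time centred on each sample's median.

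Chromosome IV, left out of the summaries above, differed far more in time than in fork direction. Its mean time was 29.3 min in glucose F, against 16.2 and 19.7 min in wild type A and B. Across its 305 windows Pearson's r of time was -0.204 between F and A and -0.105 between F and B, against 0.907 between A and B. The rightward share of the same windows gave 0.853 between F and A and 0.819 between F and B, against 0.924 between A and B. Its summed use was 23.2 initiations in glucose F, against 20.2 and 22.9 in wild type A and B, within the gap. Time was later beyond the gap in 64.6% of its windows and earlier in 29.5%.

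The chromosome fell into an early and a late part. From 1 to 450000 the mean time was 14.9 min in glucose F, against 24.4 and 26.1 min in wild type A and B. From 540001 to 1525000 it was 37.5 min in glucose F, against 13.1 and 17.1 min in wild type A and B, a difference of 22.4 min. In the left part, r of time was 0.928 between F and A and 0.914 between F and B, so the profile there kept its shape at an earlier level. The right part kept its shape less well, with r of time of 0.507 between F and A and 0.570 between F and B. Between A and B it was 0.781 there. In the right part the summed site use was 14.2 in glucose F, against 11.6 and 13.2 in wild type A and B. Glucose made no fewer initiations there than either wild type, although the fit placed them later.

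Most of the offset built up between 3 neighbouring sites. From the site at 505694 to the next at 555144 the fitted start time changed by 13.2 min in glucose F, against -6.12 and -4.36 min in wild type A and B. From 555144 to 642310 it changed by 17.1 min in glucose F, against 5.99 and 10.4 min in wild type A and B. Between these first 2 sites lies the region of 0.886 rightward share described above and the shift of termination to 549.4 kb. From 1058040 to 1166034 the step was -13.3 min in glucose F, against -4.09 and -3.41 min in wild type A and B, which took back part of the offset. Galactose E and G, of the same strain and platform as F, averaged 17.5 and 17.5 min from 540001 to 1525000, so the late right part was seen in glucose F alone.

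**Figure D5:**
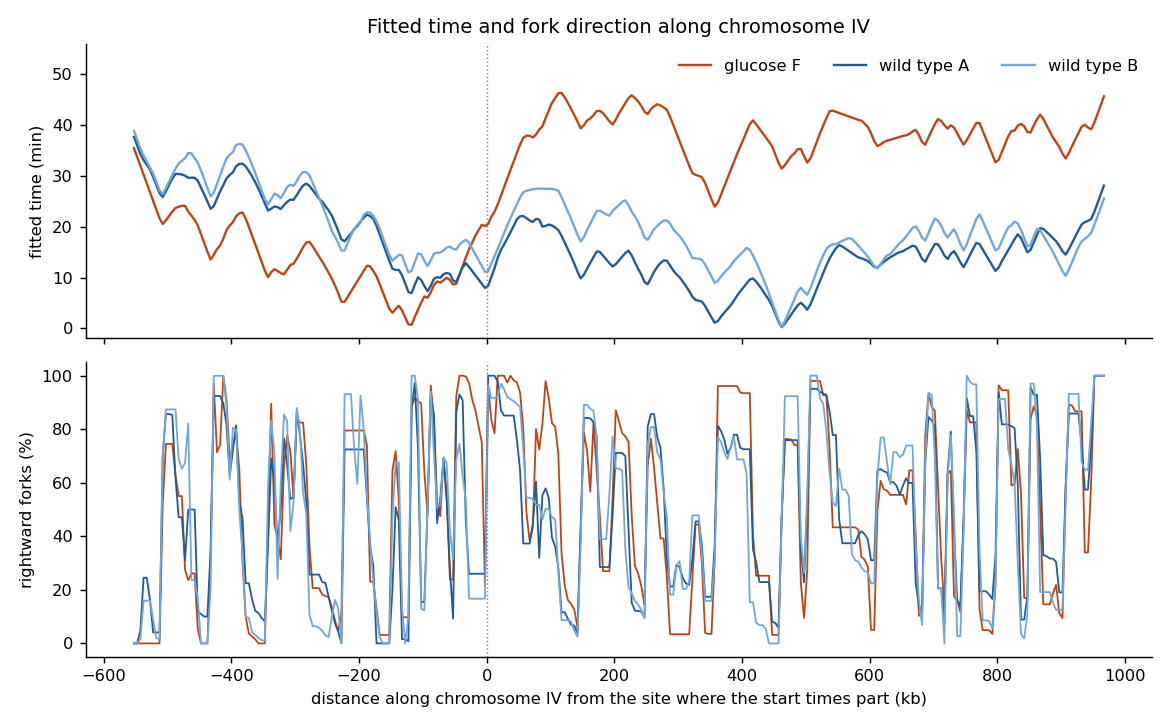
Fitted replication time in minutes (top) and share of rightward forks in percent (bottom) over 5 kb windows of chromosome IV, by distance in kb from the site at which the start times of the strains part, for glucose F, wild type A and wild type B. The time of glucose F lies below both wild types at the far left and well above them to the right of 0, with means of 37.5 min in glucose F, against 13.1 and 17.1 min in wild type A and B, while the fork direction lines largely overlap.

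Limma called 90 of the 2386 windows later in glucose (3.77%) and none earlier (0%), with 364 (15.3%) at an unadjusted p under 0.05. All 90 lay on chromosome IV, between 960001 and 1450000. With glucose and wild type alone in the fit, or without any 1 galactose or wild-type sample, no window was called, at 273 to 490 windows with an unadjusted p under 0.05. Neighbouring windows share forks, so the 90 windows are not 90 independent differences.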

How the data were processed

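Okazaki fragments of asynchronous yeast cultures were sequenced in 5 samples, and the files analysed hold the authors' fits to them, not reads. Per the labels' file descriptions, the authors deposited line segments with start and end in bases and minutes, a direction and a probability as a fraction from 0 to 1, and a probability-weighted mean time in minutes with the summed probability, also a fraction. The aligner, the build and the software behind the fits were not given in the sources used here. Read depth is unknown, so no interval that needs it is given.

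A site was taken where a leftward and a rightward segment leave the same base at the same time, at a mean probability of at least 0.1. Sites of samples within 2500 bp were joined by single linkage, and a sample without a site was set to 0. Share and time were averaged over 5 kb windows with at least 50% of positions in all samples, from steps of 500 bases. Sites and windows were fitted in R 4.3.3 with lmFit and eBayes of limma 3.58.1 (all 5 samples in 3 groups, 2 residual degrees of freedom), two-sided, with a Benjamini-Hochberg threshold of 0.05. The fit was tested on simulated data. Python 3.11.15 with numpy 2.4.6, pandas 2.3.3 and matplotlib 3.10.9 did the rest.

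The text names the 10 largest gains and 10 largest losses of site probability beyond the gap, every site called by limma, and the 5 top regions in each direction of share and of time (runs of at least 4 windows, ranked by mean difference times length), with chromosome IV apart for time. The comparison, sites and zones were chosen with earlier results of these data known. The 6 kb pairs, classes of strength, zones at ends, one-way windows and termination widths were chosen after the data were seen. Alternatives were the join distance, minimum probability, scale, window size, window filter, zero of time, chromosome IV in or out, and leaving out samples. The table of paths sampled at steps along the chromosomes was not used.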

Additional observations from a re-analysis of the deposited data

How the results depend on the processing

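The 12 limma calls of sites became 31 with sites joined within 1000 bp, 0 within 5000 bp (78 at an unadjusted p under 0.05), 0 within 10000 bp (79 unadjusted), 40 on the arcsine scale, 23 with glucose and wild type alone in the fit, and 23 to 91 with 1 wild-type or galactose sample left out. With glucose and wild type alone in the fit, all the sites called were higher in glucose. The named sites among them all had 0 in both wild types, so they could only be higher, and this direction supports nothing. Minimum probabilities of 0.05 and 0.2 gave 11 and 14. When sites within 5000 or 10000 bp were joined, a gain and its neighbouring loss became 1 site and the sign turned for 5 of them: chromosome IV 236196 became -0.0199, XVI 117154 became 0.141, I 29622 became 0.339, VI 68442 became 0.175 and XVI 883894 became -0.401. No window of rightward share was called under any alternative, with 243 to 616 at an unadjusted p under 0.05. The 90 calls of time became 45 with 10 kb windows, 150 with each sample centred on its median, 0 with chromosome IV left out of the fit (100 unadjusted), 0 with glucose and wild type alone (386 unadjusted) and 0 to 0 with 1 sample left out. The difference in mean time without chromosome IV, -0.84 min, turned to 0.72 min with chromosome IV kept in and 0.34 min with centred times. That in spread, -0.19 min, moved to 2.58 min with chromosome IV kept in and -0.47 min as a span between the outer 5% on each side, where it was beyond the gap. With wild type A or B left out, the difference in summed probability (6.77) was -2.13 and 15.7, that in mean time -1.03 and -0.64 min, that in spread -0.26 and -0.12 min and the median termination shift (2.86 kb) 2.61 and 2.66 kb. The 170 sites beyond the gap numbered 153 to 177 and the 13.9 points of one-way windows 11.9 to 14.3 with 1 setting changed, and 9.61 with 10 kb windows and limits of 95% and 5% together, all chosen after seeing the data. Glucose has 1 sample, which no alternative could leave out. No paired analysis was possible because the samples carry letters and not shared replicate numbers. Depth could not limit any statement by a number, since it is unknown.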
